A study of Rattus norvegicus with 18 samples.

Results

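The interferon regulatory factors (IRFs) are transcription factors that share a DNA-binding domain for the interferon-stimulated response element, and 8 of them, Irf1, Irf2, Irf3, Irf4, Irf5, Irf7, Irf8 and Irf9, were followed here by their gene symbols in count tables of cultured rat glia. All 8 had a row in the tables of both cell types, among 17307 gene symbols in astrocytes and 17327 in microglia. The 18 RNA-seq libraries came from primary astrocytes and primary microglia of neonatal Sprague-Dawley rat cortex, each left untreated (control), treated with Aβ42 fibrils or treated with Aβ40 fibrils for 24 h, with 3 libraries in each of the 6 groups. Aβ42 and Aβ40 are the longer and the shorter of the main amyloid-β peptides of Alzheimer's disease plaques, and each was applied as preformed fibrils at a single concentration. The cells were separated from mixed glia by shaking and carried no transgene that the labels name, and the labels do not say whether the replicates are separate cultures, so that p-values measure the spread between these libraries, which may be technical. The question was how each fibril changed the mRNA of each family member in each cell type.

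Members of the family act at different steps of the same pathway. Irf3 and Irf7 are activated by phosphorylation through the kinases Tbk1 and Ikbke downstream of nucleic acid and Toll-like receptors and switch on type I interferon genes, and Irf5 acts downstream of Toll-like receptors on inflammatory cytokine genes. Secreted interferon then signals through JAK kinases to STAT proteins such as Stat2, which join Irf9 in the complex ISGF3 on interferon-stimulated response elements. Irf1 is an activator and Irf2 its antagonist on shared sites. Irf8 and Irf4 bind weakly alone and act with partners such as the ETS factor Spi1 (PU.1), and Irf8 is known as a factor that microglia need for their development.

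The promoters of 4 members are shown, the 3 that rose most in astrocytes (Irf7, Irf1 and Irf9) and Irf8, which fell in microglia, to let the start sites of genes that moved in opposite ways be read side by side. Each line holds 300 bases of the RefSeq promoter on rat assembly GRCr8, from 250 bases before to 50 bases after the annotated gene start, written 5′ to 3′ on the strand of the gene, with capitals at matches to the motifs named below.
Irf7 promoter, chr1:205799974-205800273, minus strand: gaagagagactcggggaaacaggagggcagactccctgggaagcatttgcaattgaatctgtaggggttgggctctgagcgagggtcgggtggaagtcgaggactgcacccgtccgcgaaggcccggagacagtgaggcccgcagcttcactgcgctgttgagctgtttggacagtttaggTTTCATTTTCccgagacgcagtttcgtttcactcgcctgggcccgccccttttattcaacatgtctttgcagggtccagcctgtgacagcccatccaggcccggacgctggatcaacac
Irf1 promoter, chr10:38417685-38417984, plus strand: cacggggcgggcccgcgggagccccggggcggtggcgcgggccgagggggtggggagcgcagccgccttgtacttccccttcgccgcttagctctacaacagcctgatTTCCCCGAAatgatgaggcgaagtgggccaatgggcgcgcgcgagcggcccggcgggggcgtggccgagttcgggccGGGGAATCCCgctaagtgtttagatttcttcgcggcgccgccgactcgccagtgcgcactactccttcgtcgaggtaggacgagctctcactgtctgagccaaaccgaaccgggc
Irf9 promoter, chr15:33065586-33065885, plus strand: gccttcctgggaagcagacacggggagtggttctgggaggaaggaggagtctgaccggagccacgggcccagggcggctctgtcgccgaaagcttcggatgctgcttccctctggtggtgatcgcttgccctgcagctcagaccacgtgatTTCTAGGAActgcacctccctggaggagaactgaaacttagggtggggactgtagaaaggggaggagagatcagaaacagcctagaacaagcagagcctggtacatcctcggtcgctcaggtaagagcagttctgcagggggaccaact
Irf8 promoter, chr19:65699034-65699333, plus strand: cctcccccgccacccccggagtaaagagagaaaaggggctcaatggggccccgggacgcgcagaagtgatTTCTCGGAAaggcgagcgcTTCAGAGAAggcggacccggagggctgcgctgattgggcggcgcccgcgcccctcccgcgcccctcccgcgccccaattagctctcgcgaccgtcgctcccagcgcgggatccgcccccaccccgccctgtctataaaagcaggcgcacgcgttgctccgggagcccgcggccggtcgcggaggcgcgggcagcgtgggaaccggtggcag

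Both strands were searched for the core of the interferon-stimulated response element (GAAA, any 2 bases, GAAA), the STAT-binding GAS element (TTC, any 3 bases, GAA), the ETS-IRF composite element (GGAA, any 2 bases, GAAA) and the NF-κB consensus. Of 33465 rat promoters of the same length, 3.92% held the first, 8.87% the second, 2.94% the third and 4.18% the last. Irf7 held 1 response element core, from 69 to 60 bases before the start. Irf1 held a GAS match 142 to 134 bases before the start and an NF-κB match 65 to 56 bases before it. Irf9 held 1 GAS match and Irf8 held 2, and Irf3 held an NF-κB match 29 to 20 bases before its start. No motif of the 4 was found in these windows of Irf4 and Irf5, and Irf2 is named here without a promoter sequence. A match is a run of letters and does not show that a factor binds there.

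**Figure D1:**
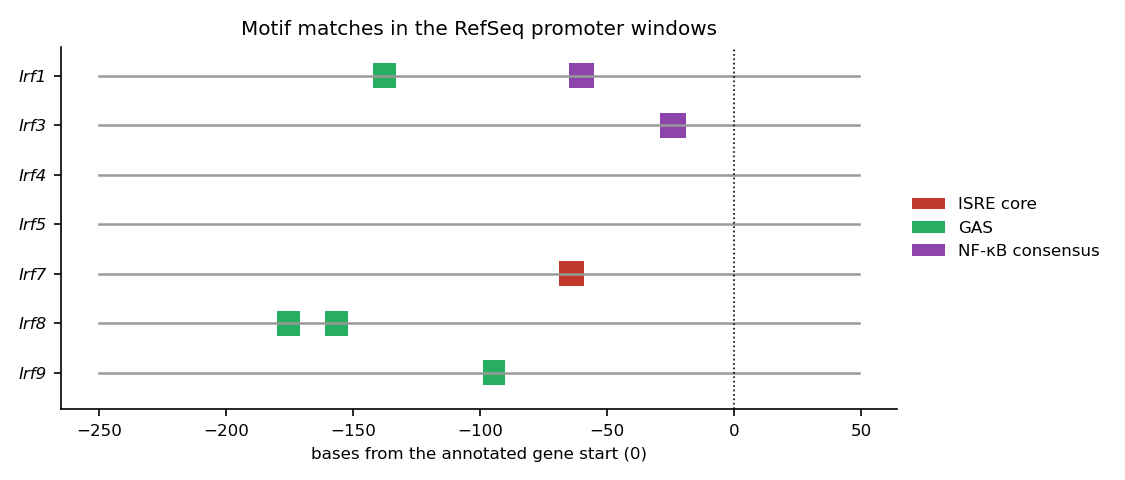
Motif matches in the promoter windows of 7 family members, plotted by distance in bases from the annotated gene start (0) along the strand of the gene. Coloured blocks mark matches on either strand. Irf7 carries the response element core, Irf8 carries 2 GAS matches, Irf1 and Irf9 carry 1 each, and the lines of Irf4 and Irf5 are empty.

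Counts on genes ran from 3674043 to 19013919 per library in astrocytes and from 2271834 to 22274367 in microglia. Levels below are scaled CPM, read counts relative to the TMM-scaled library size within the cell type, given as mean ± SD of 3 libraries, and folds are fitted by edgeR. A change is called at an adjusted p under 0.05 from the quasi-likelihood test of edgeR, where the Benjamini-Hochberg adjustment covers every gene tested. Microglial markers (13 genes) summed to 8911 to 10367 scaled CPM in untreated microglia and to 491 to 627 in untreated astrocytes, and the 10 astrocyte markers to 8962 to 10885 in untreated astrocytes and 247 to 278 in untreated microglia. The 8 oligodendrocyte lineage markers summed to 1725 to 2573 in untreated astrocytes and 1963 to 2167 in untreated microglia. Of 7 lymphocyte markers listed, 1 (Cd79b) was above the detection limit in untreated microglia, at 5.82 ± 3.67, and Ms4a1, Cd3e and Cd3g were at 0 there. In microglia treated with Aβ42 fibrils, replicate 1 (2613723 counts) stood apart from replicates 2 and 3, and in astrocytes 2 libraries, control replicate 2 and Aβ42 replicate 3, were deposited under another naming pattern. Results that change without these libraries are given with and without them.

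In untreated cells most of the family was higher in microglia. Between the cell types, cell type and the preparation of the cells cannot be told apart. For this comparison the counts of all 18 libraries were scaled together, and 7 of 8 members were higher in microglia, beside 34.2% of all 11581 genes tested in that direction, with 4 of 8 higher by 5-fold or more, beside 8.56%. Both counts include Irf4, which did not pass the filter on low counts in astrocytes. It was tested here through its microglial counts, so that its call follows in part from the filter. Irf5 was at 241 ± 17.8 in microglia and 10.2 ± 4.47 in astrocytes (log2 difference 4.49, SE 0.23, adjusted p = 1.99e-12). Irf8 was at 200.2 ± 29.8 and 11.5 ± 2.72 (4.12, SE 0.22, adjusted p = 3.13e-12), and Irf7 at 173 ± 59.4 and 21.7 ± 1.21 (3.0, SE 0.25, adjusted p = 2.91e-09). The untreated libraries of the cell types did not overlap for these genes, nor for Irf1, Irf2, Irf4 and Irf9. The share of all genes without overlap was not computed for this comparison and is not given for those within a cell type. Separation of libraries, here and below, therefore describes single genes and is not set against all genes.

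Irf4 was the member closest to absent in astrocytes. It had 248, 162 and 209 counts in untreated microglia and 5, 3 and 3 counts in untreated astrocytes, or 34.2 ± 1.52 and 0.726 ± 0.558 CPM on the common scale (log2 difference 6.09, SE 0.42, adjusted p = 1.72e-10). The astrocyte counts lay at or near the detection limit of 3 counts. Smaller differences in the same direction passed the test for Irf9 (log2 difference 1.21, adjusted p = 1.3e-08), Irf1 (0.97, adjusted p = 2.38e-06) and Irf2 (0.76, adjusted p = 0.000793). Irf3 was at 107 ± 1.89 in microglia and 99.0 ± 25.4 in astrocytes and its difference of 0.11 did not pass the test (95% interval -0.29 to 0.50, adjusted p = 0.631).

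Microglial markers were also detected in untreated astrocytes, beside the members that were highest in microglia. The summed microglial markers in untreated astrocytes were 5.07% of their level in untreated microglia, Irf8 was at 5.74%, Irf5 at 4.22% and Irf4 at 2.12%. Single markers ranged widely, from 0.897% for Fcgr2b to 59.6% for Cx3cr1. How much of the Irf4, Irf5 and Irf8 signal in astrocyte cultures came from microglia was not tested.

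**Figure D2:**
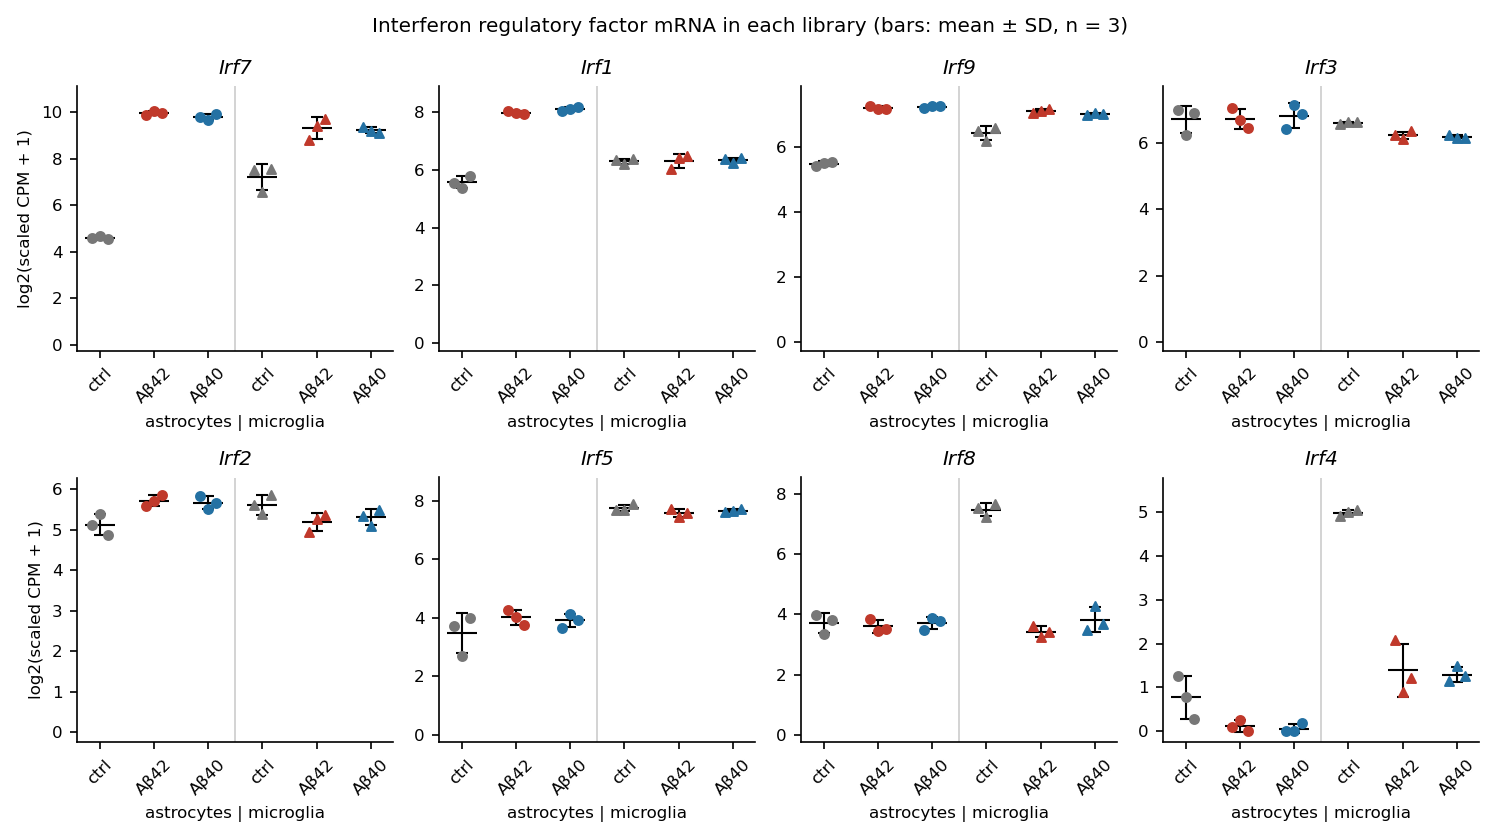
Level of each family member in each of the 18 libraries as log2(scaled CPM + 1), with astrocytes as circles to the left and microglia as triangles to the right of the line, and bars for the mean ± SD of 3 libraries on that scale. Irf7 is up with both fibrils in both cell types, Irf1 is up in astrocytes and level in microglia, and Irf8 and Irf4 are high in untreated microglia alone.

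In astrocytes, 4 of the 7 members tested rose with each fibril and none fell. With Aβ42 fibrils 4 of 7 rose, beside 16.5% of all 11690 genes tested, and 0 of 7 fell, beside 20.4%, and with Aβ40 fibrils 4 of 7 rose, beside 14.9%, and 0 of 7 fell, beside 18.4%. By edgeR at an unadjusted p under 0.05, and by DESeq2, the number lower was also 0 with each fibril. The median log2 change of the 7 was 0.60 with Aβ42 and 0.55 with Aβ40, beside medians over all tested genes that lay within 0.01 of 0. Irf7 and Irf1 passed a 5-fold criterion with both fibrils, as did 3.03% and 2.82% of all genes in the upward direction. The comparisons of the fibrils with control share the control libraries.

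Irf7, the inducible amplifier of type I interferon transcription, changed most. Its level was 23.1, 24.4 and 22.2 scaled CPM in the untreated astrocyte libraries, 950, 1068 and 1004 with Aβ42 fibrils and 883, 814 and 967 with Aβ40 fibrils. All treated libraries lay far above all untreated ones, and the groups treated with different fibrils overlapped. The fitted rise was 43.5-fold with Aβ42 (log2 5.44, SE 0.14, adjusted p = 1.66e-09) and 38.4-fold with Aβ40 (log2 5.26, SE 0.13, adjusted p = 2.26e-09).

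Irf1, an activator induced by interferon and by NF-κB, was at 45.4, 40.5 and 54.2 in untreated astrocytes, 260, 250 and 239 with Aβ42 and 258, 270 and 285 with Aβ40. Treated and untreated libraries were separated by a wide gap. The rise was 5.31-fold with Aβ42 (log2 2.41, SE 0.13, adjusted p = 2.09e-07) and 5.76-fold with Aβ40 (log2 2.53, SE 0.13, adjusted p = 1.66e-07).

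Irf9, the DNA-binding subunit of ISGF3, was at 41.5, 44.8 and 45.8 in untreated astrocytes, 153, 144 and 144 with Aβ42 and 145, 153 and 151 with Aβ40. The treated groups lay on top of each other and above every control. Its log2 change was 1.73 with Aβ42 (SE 0.11, adjusted p = 5.74e-07) and 1.76 with Aβ40 (SE 0.11, adjusted p = 6.01e-07).

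Irf2, the antagonist of Irf1, rose less. Its level was 33.7, 40.7 and 28.3 in untreated astrocytes, 47.2, 51.0 and 56.8 with Aβ42 and 56.0, 44.6 and 49.1 with Aβ40. The groups did not overlap, but the highest control came within 4 scaled CPM of the lowest Aβ40 library. The log2 change was 0.60 with Aβ42 (SE 0.16, adjusted p = 0.0141) and 0.55 with Aβ40 (SE 0.16, adjusted p = 0.0235). The call with Aβ42 was lost without Aβ42 replicate 3 (0.53, adjusted p = 0.0631), and that with Aβ40 without control replicate 1 (adjusted p = 0.0602), control replicate 3 (0.0692), Aβ40 replicate 1 (0.0874) or Aβ40 replicate 3 (0.0683). Irf2 overlaps other annotated loci on GRCr8, while the reads were aligned to rn5. Whether those loci were in the annotation used for counting, and took reads from Irf2 as ambiguous, was not tested.

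Irf3, Irf5 and Irf8 did not pass the test in astrocytes. Irf3, the constitutively made partner of Irf7, was at 106 ± 27.3 in untreated astrocytes, 106 ± 22.8 with Aβ42 and 114 ± 28.5 with Aβ40 (adjusted p = 0.985 and 0.785), and its libraries spread from 74.9 to 141 across all groups. The 95% interval of its log2 change ran from -0.53 to 0.54 with Aβ42 and from -0.43 to 0.63 with Aβ40. Irf3 overlaps Bcl2l12 in the GRCr8 annotation, and overlap in the annotation used for counting was not tested. Whether the counting used strand is not given in the sources used here.

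Irf8 was at 12.3 ± 2.91 in untreated astrocytes, 11.2 ± 1.87 with Aβ42 and 12.2 ± 1.81 with Aβ40 (log2 -0.13 and -0.01, adjusted p = 0.681 and 0.974). Irf5 was at 10.9 ± 4.85, 15.5 ± 2.89 and 14.2 ± 2.45 (log2 0.45 and 0.33, adjusted p = 0.26 and 0.425). The summed microglial markers moved differently in the same libraries, from 491 to 627 scaled CPM in untreated astrocytes to 167 to 182 with Aβ42 and 143 to 157 with Aβ40, where 10 and 11 of 13 passed the test as lower, beside 20.4% and 18.4% of all genes. In treated astrocytes 6 of 9 astrocyte markers also fell with each fibril, while 2 of them rose with Aβ42 and 3 with Aβ40. Of the oligodendrocyte lineage markers 5 of 8 fell with each fibril, as did 4 of 5 neuron markers, and 0 of either rose. Irf4 had 1, 2 and 0 counts with Aβ42 and 0, 0 and 2 with Aβ40, all under the detection limit of 3 counts, and was not tested. With no filter on low counts it was lower with Aβ40 (adjusted p = 0.0433) and missed the threshold with Aβ42 (adjusted p = 0.106).

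In microglia 2 of 8 members rose with each fibril, near the share of all genes that rose, and the members that fell included Irf8 and Irf4. With Aβ42 fibrils 2 of 8 rose, beside 27.1% of all 10837 genes tested, and 4 of 8 fell, beside 26.6%. With Aβ40 fibrils 2 of 8 rose, beside 19.6%, and 3 of 8 fell, beside 21.4%. Irf8 and Irf4 passed the 5-fold criterion downward with both fibrils, as did 2.57% and 2.47% of all genes, and 0 of 8 passed it upward, beside 3.69% and 3.36%. Irf4 passed the filter on low counts through its untreated libraries, so that its fall follows in part from the filter.

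Irf8 was at 186, 150 and 205 scaled CPM in untreated microglia, 11.2, 8.44 and 9.69 with Aβ42 fibrils and 10.1, 18.6 and 12 with Aβ40 fibrils. Every treated library was under 19 and every untreated one at 150 or more. The fall was 19.2-fold with Aβ42 (log2 -4.26, SE 0.20, adjusted p = 6.44e-09) and 13-fold with Aβ40 (log2 -3.71, SE 0.21, adjusted p = 3.47e-08). In these bulk cultures fewer cells of a type and less RNA per cell cannot be told apart.

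Irf4, known for its roles in lymphocytes and in alternatively activated macrophages, was at 29.2, 31.3 and 31.9 in untreated microglia, 3.2, 0.866 and 1.31 with Aβ42 and 1.21, 1.79 and 1.38 with Aβ40. The treated libraries held 8, 20 and 23 counts with Aβ42 and 5, 8 and 3 with Aβ40, low enough that counting error is large. The log2 change was -4.62 with Aβ42 (SE 0.26, 95% interval -5.18 to -4.06, adjusted p = 2.57e-08) and -4.36 with Aβ40 (SE 0.31, 95% interval -5.04 to -3.68, adjusted p = 2.99e-07).

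Marker genes of several cell types also moved in the same libraries. The 13 microglial markers summed to 2660 to 4239 scaled CPM with Aβ42 and 3863 to 4644 with Aβ40, where 10 and 11 of 13 fell and 2 rose with each fibril, beside 26.6% and 21.4% of all genes falling. These sums mix opposite moves of large markers. Mean Csf1r went from 2494 in untreated microglia to 170 with Aβ42 and 167 with Aβ40. The 2 that rose were Itgam, from 372 to 693 and 766, and Fcgr2b, from 287 to 710 and 1021. The border macrophage markers went from a sum of 937 to 1019 in untreated microglia to 60.6 to 89.6 with Aβ42 and 81.6 to 91.0 with Aβ40, most of it Mrc1, while of 3 tested 1, F13a1, rose with each fibril from 0 to 2 counts in untreated libraries.

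Of the lymphocyte markers Cd79b was tested, and it fell from 5.82 ± 3.67 scaled CPM in untreated microglia to 0 to 5 counts with Aβ42 and 0 to 2 with Aβ40 (adjusted p = 3.27e-05 and 0.00136). Fibroblast markers summed to 59.8 to 75.1 in untreated microglia, 138 to 165 with Aβ42 and 121 to 128 with Aβ40. Of 5 fibroblast markers tested, 3 rose and 1 fell with Aβ42, and 2 rose and 2 fell with Aβ40. Of all genes 27.1% and 19.6% rose, and 26.6% and 21.4% fell, with Aβ42 and Aβ40. Of 8 oligodendrocyte lineage markers 5 and 4 rose and 1 fell with each fibril, from sums of 1963 to 2167 in untreated microglia to 2180 to 2833 with Aβ42 and 2206 to 2666 with Aβ40. The part of these shifts in the fall of Irf8 and Irf4 was not tested. Spi1, the ETS partner of both, was at 319 in untreated microglia and did not pass the test with Aβ42 (287, log2 -0.15, adjusted p = 0.188), and it fell with Aβ40 (230.1, log2 -0.47, adjusted p = 0.00162).

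The members that rose in microglia, Irf7 and Irf9, also rose in astrocytes. Irf7 was at 183, 93.3 and 191 in untreated microglia, 447, 686 and 850 with Aβ42 and 669, 595 and 549 with Aβ40. The groups were separate, with untreated replicate 2 and Aβ42 replicate 1 the lowest of their groups. Its log2 change was 2.09 with Aβ42 (SE 0.27, adjusted p = 3.97e-05) and 1.96 with Aβ40 (SE 0.27, adjusted p = 8.65e-05).

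Irf9 was at 89.1, 72.4 and 95.9 in untreated microglia, 130.4, 138 and 143 with Aβ42 and 127, 132 and 127 with Aβ40. Every treated library lay above every untreated one, by a margin smaller than in astrocytes. Its log2 change was 0.68 with Aβ42 (SE 0.11, adjusted p = 0.000351) and 0.59 with Aβ40 (SE 0.12, adjusted p = 0.00142).

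Irf3 fell slightly. It was at 94.2, 97.2 and 96.5 in untreated microglia, 73.6, 68.7 and 79.9 with Aβ42 and 74.3, 70.2 and 70.3 with Aβ40, with no overlap between treated and untreated libraries. Its log2 change was -0.37 with Aβ42 (SE 0.10, adjusted p = 0.00657) and -0.42 with Aβ40 (SE 0.10, adjusted p = 0.00496).

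Irf2 was at 47.5, 40.6 and 56.6 in untreated microglia, 29.6, 37.4 and 40.1 with Aβ42 and 39.6, 33.1 and 44.1 with Aβ40. The lowest control and the highest Aβ42 library were less than 1 scaled CPM apart, and the Aβ40 group overlapped the controls. It fell with Aβ42 (log2 -0.40, SE 0.16, adjusted p = 0.0463), a call that held in 8 of 16 other settings, and did not pass the test with Aβ40 (log2 -0.33, adjusted p = 0.138). The Aβ42 call was lost without control replicate 1 (adjusted p = 0.105), control replicate 3 (0.228), Aβ42 replicate 2 (0.0942) or Aβ40 replicate 1 (0.0644).

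Irf1 and Irf5 did not pass the test in microglia. Irf1 was at 78.9, 72.4 and 81.4 in untreated microglia, 63.6, 83.0 and 87.1 with Aβ42 and 80.6, 74.7 and 83.2 with Aβ40, so that all groups overlapped. Its log2 change was 0.02 with Aβ42 (95% interval -0.24 to 0.29, adjusted p = 0.876) and 0.03 with Aβ40 (95% interval -0.25 to 0.31, adjusted p = 0.875). Irf5 was at 217 ± 17.1 in untreated microglia, 192 ± 18.9 with Aβ42 and 203 ± 7.36 with Aβ40 (log2 -0.18 and -0.10, adjusted p = 0.177 and 0.51), and without Aβ42 replicate 1 its change with Aβ42 passed the test (-0.25, adjusted p = 0.0164).

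**Figure D3:**
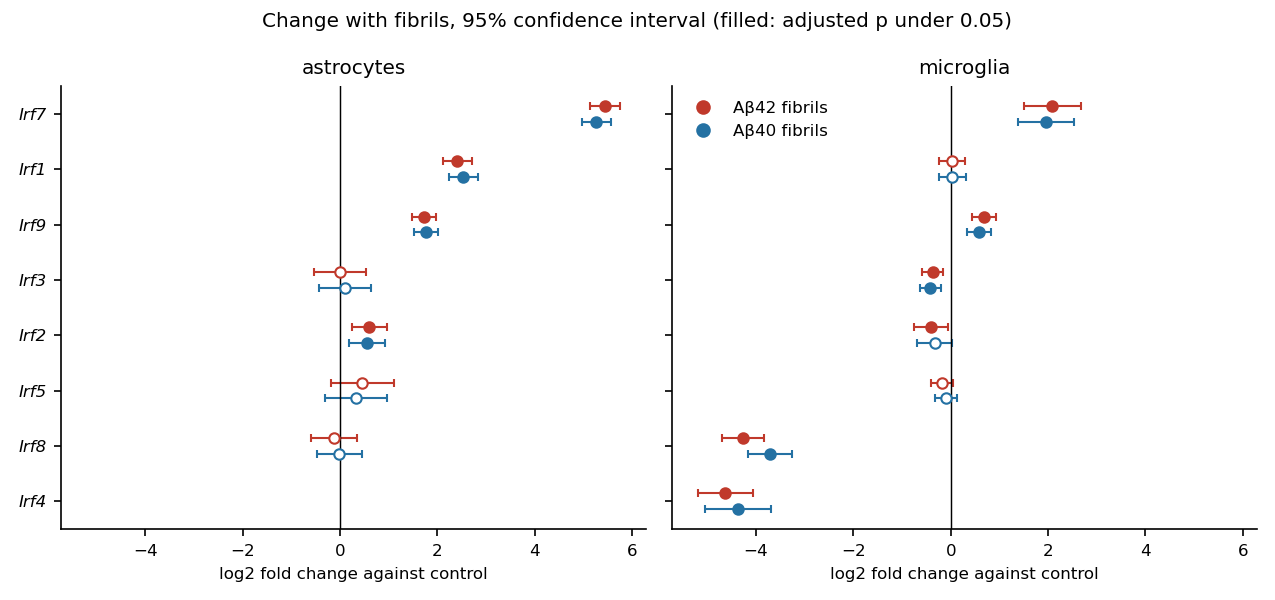
Log2 fold change of each family member with Aβ42 (red) and Aβ40 (blue) fibrils against control in astrocytes and in microglia, with 95% confidence intervals from the fit and filled points for adjusted p under 0.05. Irf7 is rightmost in both panels, at 5.44 and 5.26 in astrocytes, and Irf8 and Irf4 lie between -3.71 and -4.62 in microglia. Irf4 was not tested in astrocytes.

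The fibrils were next compared directly. In astrocytes 0 of 7 members differed between Aβ42 and Aβ40 by edgeR, beside 0.0855% of all genes, with 0 at an unadjusted p under 0.05 and 0 by DESeq2. The interval of the log2 difference (Aβ42 minus Aβ40) was narrowest for Irf9, -0.26 to 0.20, and for Irf7, -0.06 to 0.42, and widest for Irf5, -0.48 to 0.74.

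In microglia 0 of 8 members differed by edgeR, beside 20.3% of all genes, with 1 at an unadjusted p under 0.05 and 0 by DESeq2. That member was Irf8, with a log2 difference of -0.56 (95% interval -1.06 to -0.06, adjusted p = 0.0945). Without Aβ42 replicate 1 the difference was -0.63 with an adjusted p of 0.0269. For Irf7 the difference was 0.13 with an interval of -0.43 to 0.69, and for Irf4, at its low counts, -0.26 with an interval of -1.28 to 0.75.

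Whether the cell types responded differently was tested with an interaction term fitted over the 18 libraries. A difference in response may be one of cell type or of the preparation of the cells, which cannot be told apart. With Aβ42 the signed log2 change was lower in microglia for 5 of 8 members, beside 17.9% of all genes, and with Aβ40 for 5 of 8, beside 16.5%, and they were Irf1, Irf2, Irf7, Irf8 and Irf9 with each fibril. The fitted difference was below 0 for all 8 members with each fibril, and the signed difference passed the test as above 0 for 0 of 8 by edgeR or DESeq2, at an unadjusted p under 0.05 as well, beside 19.3% and 16.0% of genes. The difference of log2 changes for Irf1, which rose in astrocytes and passed no test in microglia, was -2.39 with Aβ42 (SE 0.18, adjusted p = 9.67e-09) and -2.51 with Aβ40 (SE 0.19, adjusted p = 7.4e-09).

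For Irf7, which rose in both cell types, the difference was -3.36 with Aβ42 (SE 0.33, adjusted p = 2.33e-07) and -3.32 with Aβ40 (SE 0.33, adjusted p = 3.26e-07). Untreated microglia started 3.0 higher on the log2 scale, and on the common scale the treated levels were 956 ± 60.7 in astrocytes and 746 ± 243 in microglia with Aβ42. With Aβ42 the Irf7 libraries of the cell types overlapped, while with Aβ40 the astrocytes (839 ± 75.3) stayed above the microglia (672 ± 71.0) in every library. Irf9 likewise reached 139 ± 3.73 and 154 ± 10.6 with Aβ42 from 41.1 ± 1.85 and 95.3 ± 13 in untreated astrocytes and microglia.

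For Irf8 the difference was -4.13 with Aβ42 (SE 0.30, adjusted p = 4.37e-09) and -3.71 with Aβ40 (SE 0.30, adjusted p = 2.43e-08). On the common scale Irf8 was at 11.0 ± 1.32 in treated microglia and 10.7 ± 1.67 in treated astrocytes with Aβ42, from 200.2 and 11.5 in untreated cells. The difference in response did not pass the test for Irf3 (adjusted p = 0.275 and 0.137, and 0.046 with Aβ40 without astrocyte Aβ40 replicate 1), for Irf5 (0.0991 and 0.28) or for Irf4 (0.24 and 0.7), whose astrocyte counts leave the interval from -5.26 to 0.78 with Aβ42. Without astrocyte control replicate 3 the difference for Irf5 passed with both fibrils (-1.01, adjusted p = 0.0127, and -0.82, adjusted p = 0.0406).

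**Figure D4:**
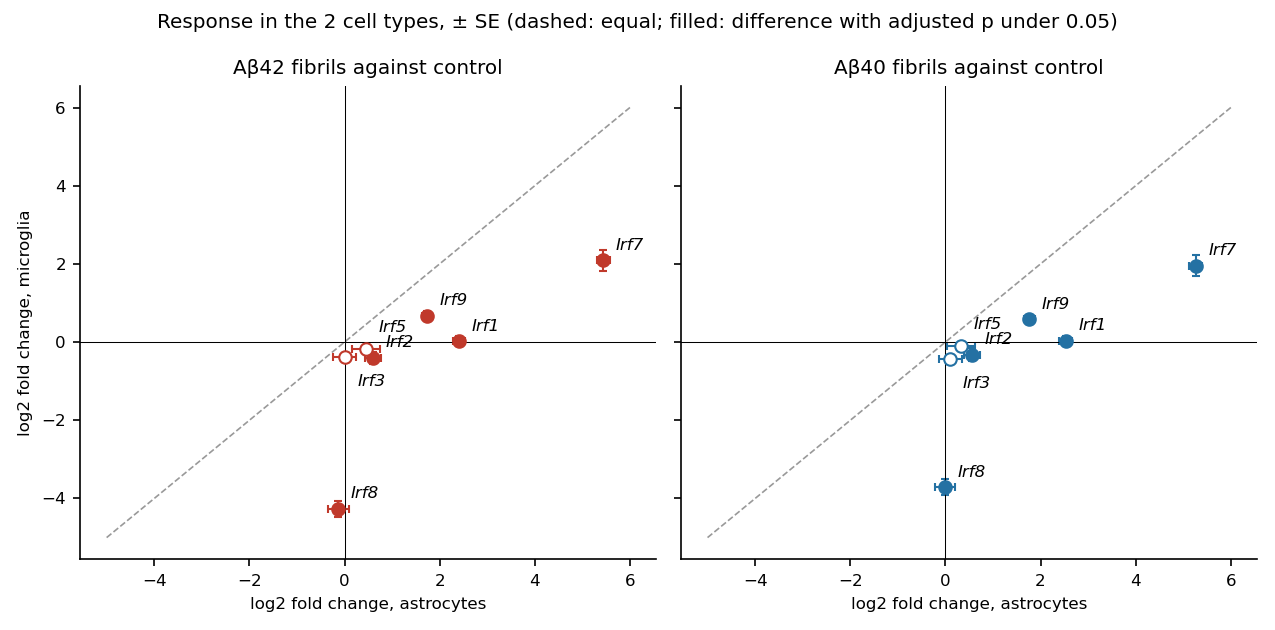
Log2 fold change against control in microglia (y axis) plotted against that in astrocytes (x axis) for 7 family members, with Aβ42 fibrils on the left and Aβ40 fibrils on the right and bars of ± 1 SE. The dashed line marks equal change and filled points mark a cell type difference with adjusted p under 0.05. All 7 members lie below the dashed line, Irf8 and Irf7 farthest from it.

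Genes that act around the IRFs were counted by lists, to be read beside the shares of all genes that rose or fell, in astrocytes 16.5% and 20.4% with Aβ42 and 14.9% and 18.4% with Aβ40, and in microglia 27.1% and 26.6% with Aβ42 and 19.6% and 21.4% with Aβ40. Of 23 receptors, adaptors and kinases upstream of IRFs in the tables, 14 of 22 tested rose and 3 fell in astrocytes with Aβ42 (median log2 0.63) and 12 rose and 4 fell with Aβ40 (0.56). In microglia 6 of 23 rose and 10 fell with Aβ42 (median -0.27) and 6 rose and 11 fell with Aβ40 (-0.27), so that the rising share with Aβ42 was near the 27.1% of all genes. The extremes were Dhx58, a cytosolic RNA sensor (log2 4.39, from 13.9 to 287 scaled CPM), and Tlr8 (-2.11) in astrocytes, and Ikbke (1.52) and Tlr9, an endosomal DNA receptor (-3.95, from 76.4 to 5.0), in microglia.

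The kinases that phosphorylate Irf3 and Irf7 did not move together. Ikbke rose in astrocytes from 10.8 to 76.6 scaled CPM with Aβ42 and 75.0 with Aβ40 (log2 2.76, adjusted p = 7.02e-06, and 2.73, adjusted p = 8.3e-06), and in microglia from 4.84 to 13.7 and 19.7 (1.52, adjusted p = 9.74e-05, and 2.02, adjusted p = 1.69e-05). Tbk1 did not pass the test in astrocytes (log2 0.32, adjusted p = 0.121, and 0.25, adjusted p = 0.233) and fell in microglia with Aβ42 (-0.47, adjusted p = 0.00642). With Aβ40 its log2 change in microglia was -0.25 (adjusted p = 0.121).

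Interferon transcripts themselves were almost absent. Of 11 interferon symbols 6 were in the tables, Ifna1, Ifna2, Ifna4, Ifnb1, Ifng and Ifnk, and 0 passed the filter on low counts. Ifnb1 had 0 counts in all untreated astrocytes, 1 to 2 with Aβ42 and 3 to 6 with Aβ40, and 0 to 1 in untreated microglia, 0 to 12 with Aβ42 and 0 to 3 with Aβ40. The other 5 had at most 1 count in any library.

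Among the interferon receptors, JAK kinases and STATs 8 of 10 rose and 0 fell in astrocytes with Aβ42 (median log2 1.13) and 7 rose with Aβ40 (1.23), beside 16.5% and 14.9% of all genes rising. In microglia 4 rose and 4 fell with Aβ42 (median -0.11), and 4 rose and 3 fell with Aβ40 (0.06), beside 27.1% and 26.6%, and 19.6% and 21.4%, of all genes. Stat2, a subunit of ISGF3, rose in both cell types, by 2.41 on the log2 scale with each fibril in astrocytes (adjusted p = 5.88e-08 and 6.89e-08) and by 0.71 and 0.78 in microglia (adjusted p = 0.0012 and 0.000799).

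Ifngr1, a subunit of the interferon-γ receptor, rose in astrocytes (log2 1.27 with Aβ42, adjusted p = 2.06e-05) and fell in microglia (-1.08, adjusted p = 5.51e-06). Ifnlr1 had the highest log2 change of the list in microglia with Aβ42 (log2 2.43, adjusted p = 0.00123), from 1 to 5 counts in untreated libraries. Il10rb had the lowest in astrocytes (log2 0.31, adjusted p = 0.236).

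Of the 40 interferon-induced genes listed, which are targets of ISGF3 and IRFs, 36 of 37 tested rose and 0 fell in astrocytes with Aβ42 (median log2 3.23), and 37 of 37 rose with Aβ40 (3.27), beside 16.5% and 14.9% of all genes. In microglia 28 of 36 rose and 3 fell with Aβ42 (median 1.39), and 28 rose and 2 fell with Aβ40 (1.42), beside 27.1% and 19.6% of all genes rising. The signed log2 change was lower in microglia for 31 of 38 with Aβ42 and for 32 of 38 with Aβ40, beside 17.9% and 16.5% of all genes. The chemokine gene Cxcl9 had the highest fitted log2 change of the list in astrocytes with Aβ42, at 84.1 ± 6.84 scaled CPM with Aβ42 and 1 to 2 counts in each untreated library, and Samhd1 had the lowest (log2 0.52, adjusted p = 0.0592). In microglia the chemokine gene Ccl5 had the highest fitted log2 change with Aβ42, at 42 ± 19.1 with Aβ42 and 1 to 5 counts in each untreated library.

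Zbp1, a sensor of nucleic acids that interferon induces, had the lowest log2 change of that list in microglia and moved oppositely in the cell types. It fell in microglia from 47.5 ± 13.5 scaled CPM to 4.60 ± 1.10 with Aβ42 and 5.81 ± 3.06 with Aβ40 (log2 -3.33, adjusted p = 1.4e-06, and -2.91, adjusted p = 1.33e-05). In astrocytes it rose from 0.879 ± 0.068 to 10.8 ± 1.61 and 13.6 ± 0.777 (3.63, adjusted p = 6.52e-07, and 3.96, adjusted p = 3.28e-07).

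Of the IRF partners and co-regulators, 3 of 8 rose and 1 fell in astrocytes with each fibril (median log2 0.59 with Aβ42 and 0.45 with Aβ40), and in microglia 5 of 9 rose and 1 fell with Aβ42 (0.40) and 4 rose and 1 fell with Aβ40 (0.00), beside 16.5% and 14.9% of all genes rising and 20.4% and 18.4% falling in astrocytes, and 27.1% and 19.6% rising and 26.6% and 21.4% falling in microglia. Spib, an ETS factor related to Spi1, had the highest fitted log2 change in both, at low levels, from 0 to 3 counts in untreated astrocytes to 7.21 ± 1.88 scaled CPM with Aβ42 and from 0 to 2 counts in untreated microglia to 4.58 ± 1.25. Spi1 fell in astrocytes (log2 -2.14, adjusted p = 0.000217, and -2.82, adjusted p = 3.79e-05), along with the microglial markers there. Etv6 had the lowest log2 change in microglia with Aβ42 (-0.51, adjusted p = 0.0133).

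Of the negative regulators of IRF and interferon signalling, 5 of 11 rose and 1 fell in astrocytes with each fibril (median log2 0.70 and 0.59), and 5 rose and 3 fell in microglia with each (0.17 and 0.30). Of all genes 16.5% and 14.9% rose and 20.4% and 18.4% fell in astrocytes, and 27.1% and 19.6% rose in microglia. The shares of all genes falling in microglia, 26.6% and 21.4%, were near 3 of 11. Usp18, which restrains interferon receptor signalling, rose in astrocytes (log2 4.28, adjusted p = 5.08e-09), where Ptpn6 fell (-1.86, adjusted p = 1.66e-05). Their means moved the same way in microglia. Usp18 went from 53.7 to 505 scaled CPM with Aβ42 and 478 with Aβ40, and Ptpn6 from 880 to 463 and 536. Socs3, an inhibitor of JAK kinases, rose in microglia from 3.24 to 270.2 scaled CPM with Aβ42 (6.39, adjusted p = 7e-10), where Pias1 had the lowest log2 change (-1.23, adjusted p = 0.000308).

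**Figure D5:**
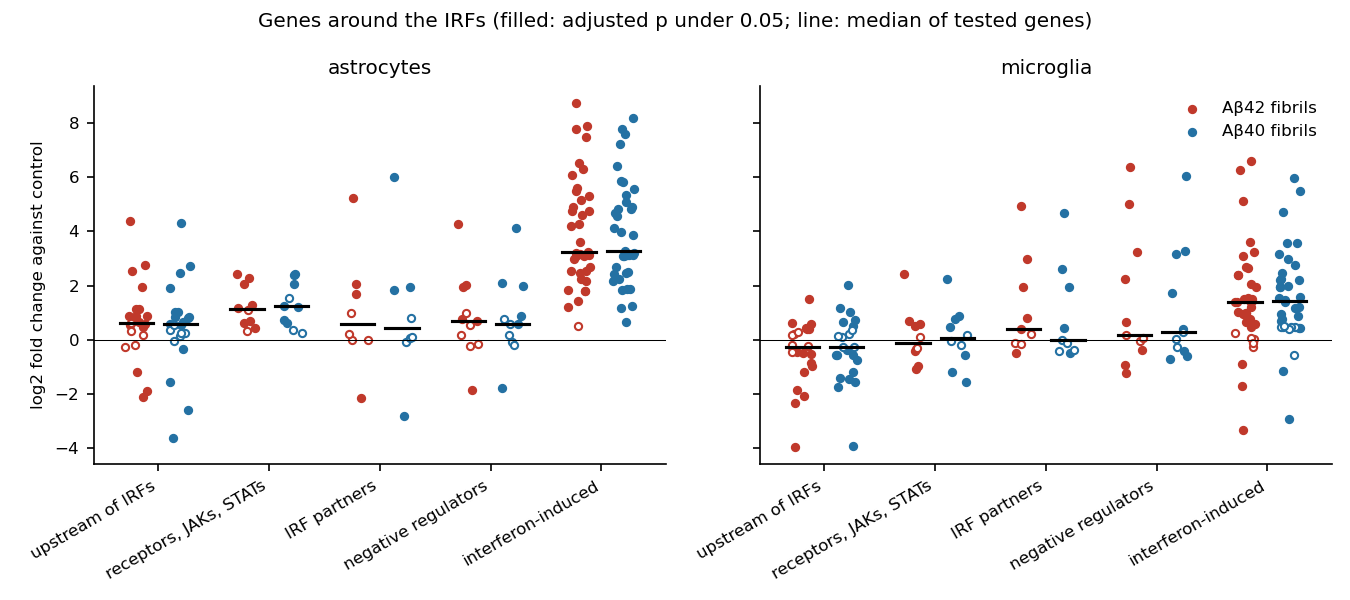
Log2 fold change against control of the tested genes of 5 lists in astrocytes and microglia, with Aβ42 fibrils in red and Aβ40 fibrils in blue, filled points for adjusted p under 0.05 and a black line at the median of each list. The interferon-induced genes have medians of 3.23 and 3.27 in astrocytes and 1.39 and 1.42 in microglia.

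The genes with a profile most like each member were found by the root mean square difference of log2(CPM + 1), centred on its mean, over the 6 group means, among 11580 genes. For Irf1 they were Irgm (0.16), Fbxw17 (0.23) and Znfx1 (0.24), for Irf7 Oas1b (0.31), Oas1a (0.34) and Cxcl17 (0.35), and for Irf9 RT1-CE5 (0.09), Adar (0.10) and Jak2 (0.16). For Irf8 they were Clec4a2 (0.23), Nuak1 (0.24) and Slc28a2 (0.25), for Irf4 Atp2a3, Clic2 and Rnf150, and for Irf5 Rbm47, Ptger4 and Slc15a3. For Irf2 they were Arhgef11, Akirin1 and Herc3, and for Irf3, whose profile was nearly flat, Hadha, Bnip3l and Aars2. These distances describe 6 points and carry no test.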

How the data were processed

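Gene expression was measured by RNA-seq (stranded mRNA libraries) in 18 libraries of 6 groups. The authors aligned reads to the rat assembly rn5 with STAR, and their processing notes also name Salmon and DESeq2, with versions not given in the sources used here. They deposited 1 table of whole-number read counts per gene for each library, not normalized, with reads on no gene or on several genes in rows of their own (26.0% to 34.2% of reads in astrocytes, 21.7% to 24.5% in microglia), which were left out of library sizes.

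Groups were taken from the sample labels. Counts were scaled by TMM and filtered by filterByExpr, and each cell type's 9 libraries were fitted together by glmQLFit and glmQLFTest (edgeR 4.0.16, limma 3.58.1, R 4.3.3), without covariates. Cell types were compared in a fit of 18 libraries over 16704 shared symbols, of which 11581 were tested. Scripts were tested on simulated data. A level of 3 counts, the detection floor, was 0.160 to 0.835 scaled CPM in astrocytes and 0.130 to 1.38 in microglia, and intervals and floors cover counting error or library spread alone. No replicate pair was within sampling noise. DESeq2 1.42.0, other scalings and filters, a replicate block and leaving out libraries served as alternatives. The members, lists and tests were chosen with earlier results of these data known. Named were all 8 members, the highest and lowest gene of each list with Aβ42, 5 set genes (Stat2, Spi1, Ifnb1, Tbk1 and Ikbke), and the 3 genes most like each member. Other genes that this rule names are not reported here. Promoters came from RefSeq (GRCr8), with 7 of 8 members matched, and the GRCr8 annotation gave the overlapping loci.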

Additional observations from a re-analysis of the deposited data

Results flagged for a closer look

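The change with fibrils differed between the cell types by the test of the difference itself for 5 members with both fibrils, as differences of log2 changes (microglia minus astrocytes) from edgeR's fit of 18 libraries. Cell type and the preparation of the cells cannot be told apart in these differences. Irf1 gave -2.39 with Aβ42 and -2.51 with Aβ40, Irf7 -3.36 and -3.32, and Irf9 -1.06 (adjusted p = 2.58e-05) and -1.19 (adjusted p = 8.4e-06), with a larger rise in astrocytes in each case. Irf8 gave -4.13 and -3.71, with a fall in microglia. Irf2 gave -1.02 (adjusted p = 0.0028) and -0.90 (adjusted p = 0.00915), with higher values in treated astrocytes and lower values in treated microglia. Within microglia the fall of Irf2 passed edgeR's test with Aβ42 (adjusted p = 0.0463), in 8 of 16 other settings, and not with Aβ40 (0.138). Within astrocytes its call with Aβ40 was kept in 12 of 18 other settings.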

How the results depend on the processing

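Every count of members past the threshold kept within 1.5 times its main value under other scalings (DESeq2 size factors, library totals), the DESeq2 test, other filters, fits of 2 groups alone and leaving out each library, except the count for Aβ42 against Aβ40 in microglia, which was 0 and ranged from 0 to 1, with Irf8 past the threshold without Aβ42 replicate 1. The changes of Irf7, Irf1 and Irf9 in astrocytes and of Irf7, Irf9, Irf3, Irf8 and Irf4 in microglia kept direction and call in every setting that could be fitted, and Irf4 was not tested at 10 counts in every library. With no filter the count in astrocytes with Aβ40 was 5 rather than 4, through Irf4. The call for Irf2 in microglia with Aβ42 was also lost with DESeq2 size factors (adjusted p = 0.0503), the DESeq2 test (0.0518), 10 counts in every library (0.0543) and 2 groups alone (0.0808), and in astrocytes with Aβ40 with 2 groups alone (0.0662). Without microglia Aβ42 replicate 1 Irf2 also passed with Aβ40 in microglia (adjusted p = 0.0368). Replicate numbers did not pair the libraries (2 of 9 pairs in astrocytes and 1 of 9 in microglia had deviations correlated over 0.1), and the fit with the replicate block lost the call for Irf2 in astrocytes with Aβ40 (0.55, adjusted p = 0.063) and turned Irf8 there to 0.0090.

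Signs turned only for differences that did not pass the test. With library totals Irf3 was -0.041 in astrocytes with Aβ42 and -0.16 between untreated cell types, and Irf1 0.0040 between fibrils in microglia. With no filter Irf8 was 0.0086 in astrocytes with Aβ40 and Irf1 0.0021 between fibrils in microglia, where 10 counts in every library gave 0.0034. In 2 settings chosen after seeing the data, leaving out both astrocyte libraries of another naming pattern gave Irf3 -0.065 with Aβ42 and -0.091 with Aβ40, and Irf2 -0.028 and Irf3 0.026 between fibrils, and naming pattern as a term gave Irf3 -0.046 with Aβ40, and Irf2 -0.051 and Irf3 0.073 between fibrils. Leaving out 1 library at a time gave in astrocytes Irf3 -0.18 to 0.15 with Aβ42 and -0.082 to 0.28 with Aβ40, and Irf8 -0.15 to 0.11 with Aβ40. Between fibrils in astrocytes it gave Irf2 -0.031 to 0.14, Irf3 -0.27 to 0.084 and Irf5 -0.0069 to 0.25. In microglia Irf1 was -0.056 to 0.12 with Aβ42 and -0.0027 to 0.088 with Aβ40, and between fibrils Irf1 was -0.089 to 0.10, Irf2 -0.19 to 0.017, Irf3 -0.016 to 0.11, Irf4 -0.48 to 0.15 and Irf7 -0.087 to 0.34. Between untreated cell types Irf3 was -0.083 to 0.18, and the Irf4 response to Aβ40 differed by -1.86 to 0.87. The cause of these turns was not tested. Depth limits Irf4 in treated microglia and in all astrocytes.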
